A study of Homo sapiens with 54 samples.

Results

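The comparison of crRNA S7 with the non-targeting crRNA (NTG) in N2V8-expressing cells consists of 6 of the 54 RNA-seq libraries of the series, the 3 libraries labelled N2V8_S7 against the 3 libraries labelled N2V8_NTG. The 6 libraries were taken by their labels, while the gene lists used below were chosen with earlier results of these data known. The series measured poly(A) RNA from HEK293T, an established embryonic kidney cell line with the SV40 large T antigen, in 18 groups of 3 independent biological replicates. N2V8_S7 cells were transiently transfected with a plasmid that carried the RfxCas13d variant N2V8 and crRNA S7. N2V8_NTG cells received the same effector with a crRNA meant to match no human transcript, so both groups share the effector and the transfection. The other groups used below are N2V8 with S13, S3 or S4, the unmutated RfxCas13d (WT) with S7 or NTG, the variant N2V7 with S7 or NTG, and untransfected cells (UT). By the labels the cells were harvested 48 h after transfection, whereas the study's account of these libraries names a later time. The labels call S7 an additional crRNA and do not state its target. The study designed numbered crRNAs against C9ORF72, and whether S7 is the crRNA of that number was not tested here. Each library is a whole culture in which the share of transfected cells is not given, so fewer responding cells and a smaller change per cell cannot be told apart.

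RfxCas13d is a CRISPR effector that cuts RNA. Its crRNA base-pairs with a transcript, which activates a nuclease site formed by the HEPN domains, and the activated enzyme can also cut bystander RNA, an activity known as collateral cleavage. N2V7 and N2V8 are variants with mutated residues in a HEPN domain that were made to lower the collateral activity. Cells that sense a shortage of amino acids, unfolded protein, haem shortage or double-stranded RNA phosphorylate the initiation factor eIF2, which lowers general translation and raises translation of the transcription factor ATF4. ATF4 then induces genes for amino acid synthesis and uptake, tRNA charging and redox control, a programme called the integrated stress response. The heat shock response is a separate programme, in which HSF1 induces cytosolic and mitochondrial chaperones.

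The 6 libraries held 9546773, 13282186 and 9932342 estimated counts (N2V8_S7) and 11704162, 10392433 and 10483649 estimated counts (N2V8_NTG). Levels are given below as CPM, counts divided by the library total and rescaled with TMM factors, in the order of replicates 1, 2 and 3. Only the marker levels in this paragraph were not rescaled with TMM factors. Of the 16 markers fixed for HEK293 cells, 14 were above 1 CPM in all 6 libraries. Of 16 neuroblastoma markers 10 were below 1 CPM in all 6, with PHOX2A, DBH and TH at 0. Another 4 were above 1 CPM in all 6, namely HAND2, MYCN, ISL1 (15.9 to 17.8 CPM) and GATA2 (30.04 to 36.76 CPM). Of 24 markers of other lineages 14 were below 1 CPM in all 6. Another 8 were above it in all 6, among them MBP, OLIG2 and COL1A1 (12.5 to 20.8 CPM). The 16 ribosomal RNA genes in the table took 2.22 to 3.58% of the counts in N2V8_S7 and 1.81 to 3.52% in N2V8_NTG, and these ranges overlapped.

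C9orf72, the gene whose repeat expansion causes a familial form of amyotrophic lateral sclerosis and frontotemporal dementia, was measured first (Entrez Gene 203228, GRCh38 chromosome 9, 27546546 to 27573866). Its levels were 28.3, 30.4 and 27.4 CPM in the N2V8_S7 libraries, against 27.8, 26.2 and 25.2 CPM in the N2V8_NTG libraries. The groups overlapped, with 1 NTG library at the level of the lower S7 libraries. The log2 fold change was 0.12 ± 0.09 (SE, 95% interval -0.07 to 0.31), with an adjusted p of 0.437 by edgeR's quasi-likelihood test, so no change in the summed C9orf72 transcripts was detectable. The gene-level table does not separate the transcript variants. C9orf72 averaged 28.7 ± 1.57 CPM in N2V8_S7, 29.9 ± 1.45 in N2V8_S4, 25.4 ± 0.83 in N2V8_S13, 24.4 ± 2.60 in N2V8_S3 and 26.4 ± 1.28 in N2V8_NTG (SD, n = 3 each). The largest distance of S7 from another N2V8 crRNA group was 0.23 on the log2 scale (S3), and this difference did not pass the test.

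Of the 12 tested members of a list of proteins that bind or act with C9ORF72, 1 rose (8.33%) and 1 fell (8.33%), beside 3.86% and 3.47% of all tested genes. With 12 members these counts were not read as a result about the list. SMCR8 and WDR41, which form a complex with the C9ORF72 protein, changed by -0.09 ± 0.08 and 0.04 ± 0.05 on the log2 scale, neither past the threshold. RAB39B, a small GTPase that interacts with the complex, had 9.60, 9.96 and 11.4 CPM in N2V8_S7, against 6.88, 7.49 and 6.51 CPM in N2V8_NTG (log2 fold change 0.57 ± 0.14). RAB29, a small GTPase of the Golgi and lysosomal traffic, had 39.0, 39.0 and 45.4 CPM against 52.4, 55.0 and 57.5 CPM (-0.42 ± 0.08). The groups were separate for each of these GTPases.

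Across the transcriptome 15378 genes were tested, and a gene was called where its log2 fold change lay beyond 0.322 in either direction (the fold limit) and its adjusted p was below 0.05. By this rule 1127 genes (7.33% of those tested) differed between N2V8_S7 and N2V8_NTG, of which 593 (3.86%) rose and 534 (3.47%) fell. The changes were small for most of them: 97 exceeded a 2-fold change, 80 upwards and 17 downwards. Of the called genes 132 had a mean log2 CPM below 2. Fewer than 15 of the 80 had separate groups and a mean log2 CPM of at least 2. The libraries of the 2 groups did not overlap for 1066 of the called genes, and did not overlap for 4894 of all tested genes (31.8%). The median log2 fold change over all tested genes was 0.0028. Leaving out each of the 6 libraries in turn gave between 926 calls (without N2V8_NTG replicate 2) and 1188 calls (without N2V8_NTG replicate 1), and 450 genes, 219 of them higher and 231 lower, were called in all 6 of these fits.

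**Figure D1:**
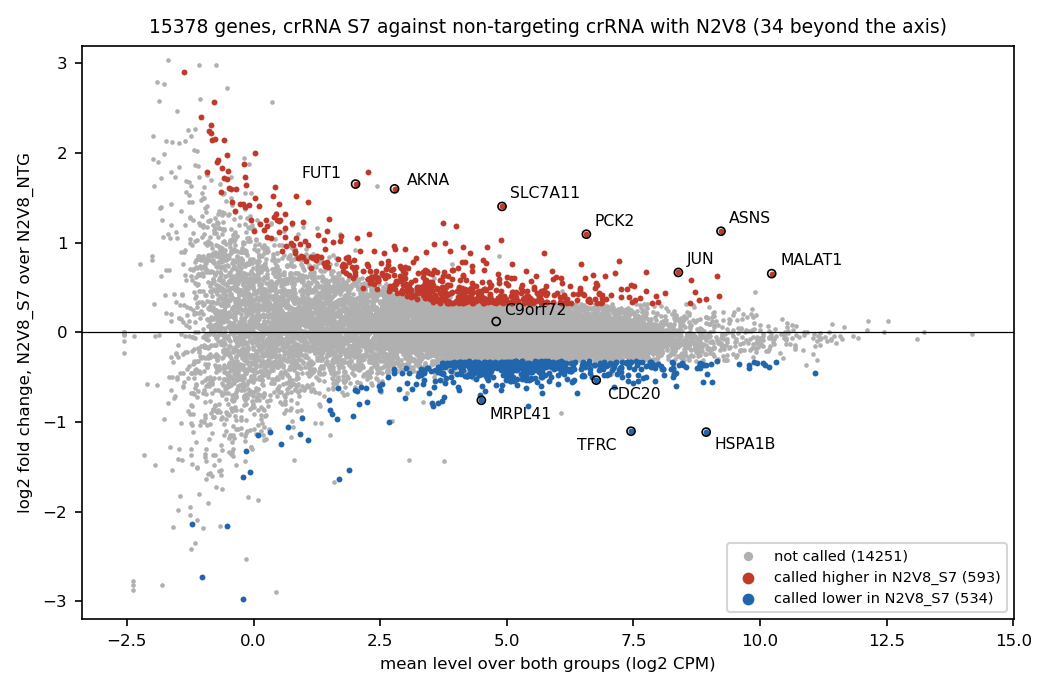
Mean level (x axis, log2 CPM) and log2 fold change of N2V8_S7 over N2V8_NTG (y axis) for each tested gene, with the called genes in colour and selected genes named. The 593 rises and 534 falls lie above and below a cloud centred on 0, with ASNS and PCK2 among the rises and HSPA1B and TFRC among the falls at high level, C9orf72 inside the cloud at 0.12, and 34 genes beyond the y axis not shown.

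Integrated stress response targets were the list with the largest share of called members. Of its 55 genes, all of which passed the filter on low counts, 32 rose (58.2%) and 0 fell, beside 3.86% and 3.47% of all tested genes. At an unadjusted p below 0.05, 50 were higher (90.9%) and 0 lower, beside 13.3% higher and 16.3% lower of all tested genes, shares against which the counts at this p below are to be read. DESeq2 called 33 higher and 0 lower, and limma 31 and 0. The median log2 fold change of the list was 0.37, against 0.0028 over all tested genes. Between 27 and 33 members were called when any of the 6 libraries was left out, and 25 of the 32 were called in all 6 such fits. The summed level of the list was 13648 to 14525 CPM in N2V8_S7 and 10882 to 11322 CPM in N2V8_NTG, while untransfected cells were at 14776 to 15016 CPM.

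The level in untransfected cells bears on how these rises read. Against untransfected cells, 3 of the 55 members were higher and 12 lower in N2V8_S7 (9.3% and 7.34% of all tested genes), with a median of -0.09. In N2V8_NTG, 1 member was higher and 32 were lower than in untransfected cells (15.5% and 15.1% of all tested genes), with a median of -0.45. These comparisons share the untransfected libraries, were added after the data were seen, and contain the effect of transfection itself, which cannot be told apart here from that of the effector or crRNA. Among these 3 groups the summed level of the list was lowest in N2V8_NTG, and the rises described next are relative to that group.

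Some of the targets carry, near their start, the composite element that ATF4 binds together with a C/EBP partner, which can be written TGATGNAA. In the RefSeq promoter windows (GRCh38.p14, from 250 bases before the annotated start), 10 of the 44 list genes with a window held this motif on either strand, or 10 of 70 windows (14.3%), and 7 of those 10 genes were called higher, beside 27 of the 44. The same letters were in 3.14% of all 35116 windows. The members were listed because they are known targets, so this share describes the list and is no result of the comparison. The 4 windows below are shown because their genes rose in N2V8_S7 and represent an enzyme, a glutathione-degrading enzyme and 2 transcription factors. They are written 5′ to 3′ on the strand of the gene with the motif in capitals, which in CHAC1 appears as its reverse complement.
ASNS (chr7:97872444-97872501, minus strand): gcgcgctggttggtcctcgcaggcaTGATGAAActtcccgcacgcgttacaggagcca
CHAC1 (chr15:40953237-40953294, plus strand): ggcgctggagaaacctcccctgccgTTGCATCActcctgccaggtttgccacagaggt
CEBPG (chr19:33374046-33374103, plus strand): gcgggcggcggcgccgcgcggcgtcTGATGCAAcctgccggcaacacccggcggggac
JDP2 (chr14:75427981-75428021, plus strand): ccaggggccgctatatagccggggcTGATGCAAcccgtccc

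Rises were called in amino acid synthesis genes of the list. ASNS, which makes asparagine from aspartate (Entrez Gene 440, chromosome 7, 97851677 to 97928441), had 786, 911 and 976 CPM in N2V8_S7, against 438, 378 and 403 CPM in N2V8_NTG. Every S7 library was above every NTG library, and the fold change was 2.19 (log2 1.13 ± 0.12, adjusted p = 5.68e-09 by edgeR). The pseudogene ASNSP1, whose reads may be shared with its parent gene, had 18.1, 15.2 and 16.4 CPM in N2V8_S7, against 8.92, 6.21 and 9.81 CPM in N2V8_NTG. PSAT1, which catalyses a step of serine synthesis, had 662, 739 and 713 CPM against 473, 416 and 477 CPM (0.63 ± 0.08). PSPH, which completes the serine pathway, also rose (0.47 ± 0.09), while PHGDH, which opens it, had a log2 change of 0.23 ± 0.05 that stayed under the fold limit. Among enzymes of mitochondrial one-carbon metabolism, ALDH1L2 rose by 0.76 ± 0.09 and MTHFD2 by 0.45 ± 0.06. CTH, which makes cysteine from cystathionine, rose by 0.60 ± 0.09.

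PCK2, the mitochondrial enzyme that makes phosphoenolpyruvate (Entrez Gene 5106, chromosome 14, 24094171 to 24104125), had 123, 137 and 158 CPM in N2V8_S7, against 69.7, 62.0 and 63.2 CPM in N2V8_NTG. The groups were separate and the fold change was 2.14 (log2 1.09 ± 0.12, adjusted p = 2.31e-08 by edgeR). CHAC1, which breaks down glutathione (Entrez Gene 79094, chromosome 15, 40953471 to 40956512), had 35.8, 43.0 and 49.2 CPM against 21.8, 18.2 and 22.2 CPM (1.03 ± 0.13). Its paralog CHAC2, which is not in the list, moved the other way, with 9.29, 10.997 and 11.2 CPM in N2V8_S7 against 15.98, 20.2 and 16.02 CPM in N2V8_NTG (-0.72 ± 0.14).

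Of 8 amino acid transporter chains in the list, 5 rose. SLC7A11, the light chain of the cystine/glutamate exchanger (Entrez Gene 23657, chromosome 4, 138164097 to 138242349), had 43.6, 47.5 and 57.2 CPM in N2V8_S7, against 21.2, 12.9 and 21.5 CPM in N2V8_NTG. It showed the largest rise of the list, 2.65-fold (log2 1.40 ± 0.20, adjusted p = 2.86e-06 by edgeR). SLC1A4, which carries small neutral amino acids, rose by 0.89 ± 0.13, SLC6A9, a glycine transporter, by 0.62 ± 0.15, SLC7A1, which carries cationic amino acids, by 0.46 ± 0.06, and SLC7A5, the light chain of the large neutral amino acid exchanger, by 0.40 ± 0.06. SLC3A2, the heavy chain that pairs with SLC7A5 and SLC7A11, had a log2 change of 0.18 ± 0.05 and was under the fold limit, and the neutral amino acid transporters SLC38A2 (0.23 ± 0.09) and SLC1A5 (0.13 ± 0.05) were not called. In contrast, the glutamate transporter SLC1A3, which is not in the list, fell to 30.8, 34.3 and 30.5 CPM in N2V8_S7, against 59.2, 54.3 and 56.3 CPM in N2V8_NTG (-0.83 ± 0.16).

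Of the aminoacyl-tRNA synthetases, AARS1 (0.38 ± 0.05) and CARS1 (0.41 ± 0.07) rose in each fit that left out a library. GARS1 rose by 0.36 ± 0.05 and lost its call without N2V8_NTG replicate 2, where its change was 0.31. SARS1 (0.32 ± 0.05) and YARS1 (0.29 ± 0.05) had small standard errors and stayed under the fold limit.

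Transcription factors of the programme differed in how far they moved. The mRNA of ATF4 itself had 741, 757 and 859 CPM in N2V8_S7, against 743, 685 and 709 CPM in N2V8_NTG. These levels overlapped, with a log2 change of 0.14 ± 0.05 that was not called (adjusted p = 0.0533 by edgeR), and RNA levels do not report the translation of ATF4. ATF5, a related factor (Entrez Gene 22809, chromosome 19, 49928906 to 49933935), had 19.9, 23.5 and 28.8 CPM against 9.94, 12.2 and 9.71 CPM (1.18 ± 0.25). JDP2, a repressor of the AP-1 family, rose by 0.71 ± 0.13, and the C/EBP factors CEBPB and CEBPG rose by 0.68 ± 0.13 and 0.53 ± 0.08.

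DDIT3, which encodes CHOP, a factor linked to cell death in prolonged stress, had 25.3, 39.1 and 42.0 CPM in N2V8_S7, against 26.3, 20.4 and 23.6 CPM in N2V8_NTG. Here 1 S7 library lay among the NTG libraries. The change of 0.60 ± 0.18 lost its call without N2V8_S7 replicate 2, N2V8_S7 replicate 3 or N2V8_NTG replicate 2, with log2 changes between 0.47 and 0.78 over the 6 fits. ATF3, an ATF4-induced factor, rose by 0.33 ± 0.09 and lost its call without N2V8_S7 replicate 3 or N2V8_NTG replicate 2 (0.26 to 0.39 over the 6 fits). NUPR1, a small stress-induced chromatin protein, rose by 0.68 ± 0.19 and lost its call without N2V8_NTG replicate 1 (0.53).

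Regulators that act further along the programme rose too. TRIB3, a pseudokinase that restrains ATF4 and AKT, had 44.2, 52.8 and 61.4 CPM in N2V8_S7, against 36.1, 29.3 and 32.2 CPM in N2V8_NTG (0.69 ± 0.16). DDIT4, an inhibitor of mTORC1, had 163, 193 and 173 CPM against 120, 102 and 112 CPM (0.66 ± 0.07), and SESN2, a leucine sensor that also restrains mTORC1, had 129, 127 and 136 CPM against 94.9, 81.9 and 90.3 CPM (0.55 ± 0.08). All 3 genes were separate between the groups. EIF4EBP1, a repressor of cap-dependent translation, rose by 0.37 ± 0.06 and lost its call without N2V8_S7 replicate 3, where the log2 change was 0.31. PPP1R15A, the subunit that directs a phosphatase to eIF2, rose by 0.33 ± 0.10 and was under the limits in 4 of the 6 fits that left out a library (0.29 to 0.39), those without N2V8_S7 replicate 1 or 3 or N2V8_NTG replicate 1 or 3. The collagen receptor DDR2 (0.67 ± 0.07), the secreted glycoprotein STC2 (0.48 ± 0.08) and the lipoprotein receptor VLDLR (0.53 ± 0.09) rose.

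**Figure D2:**
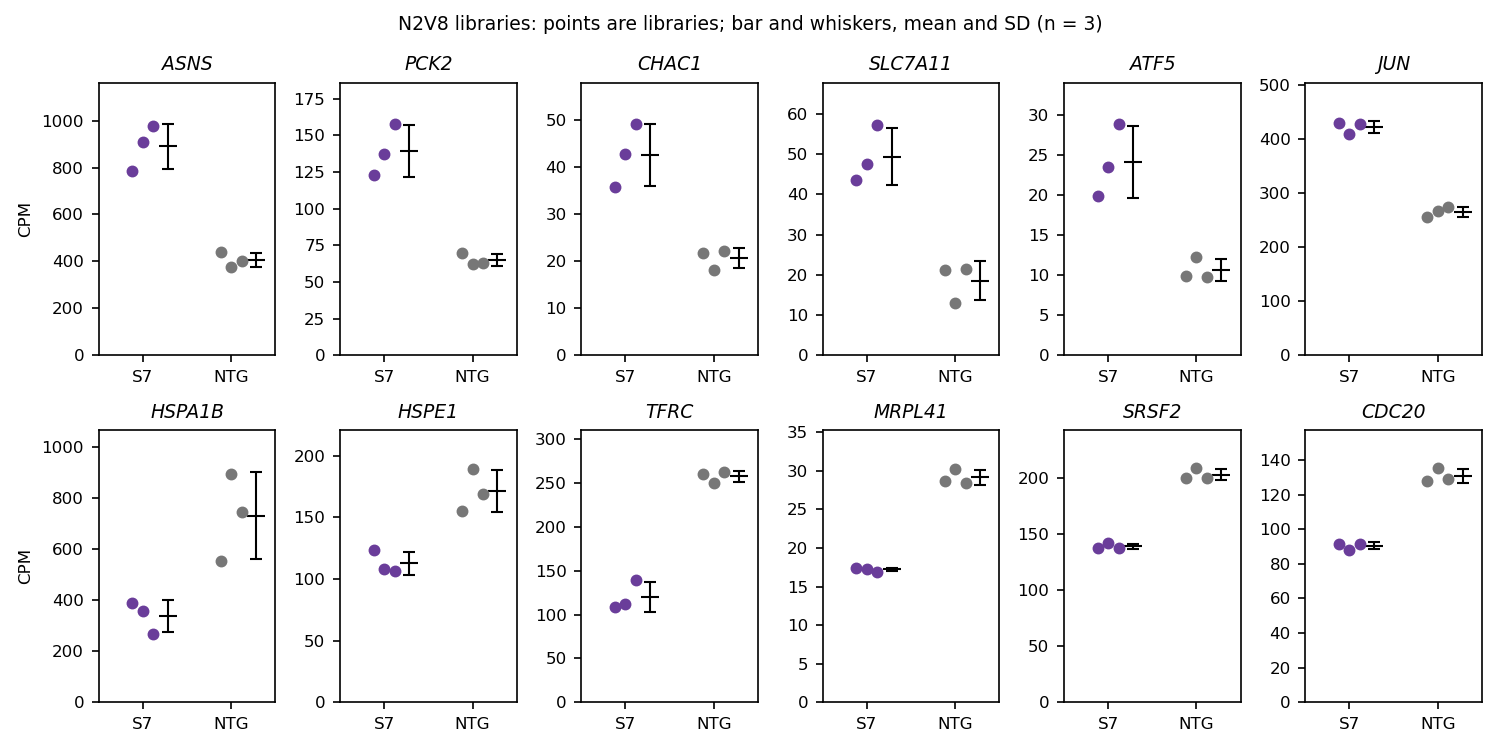
Levels (y axis, CPM, from 0) of 6 genes that rose (upper row) and 6 that fell (lower row), with a point for each N2V8_S7 and N2V8_NTG library and a bar with whiskers at the mean and SD (n = 3). For ASNS the 3 N2V8_S7 points lie at 786 to 976 CPM and the 3 N2V8_NTG points at 378 to 438 CPM, and for HSPA1B the N2V8_S7 points lie at 269 to 390 CPM below N2V8_NTG points at 552 to 894 CPM.

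No call fell on the kinases upstream of eIF2 at the RNA level. Of 17 eIF2 kinases, eIF2B subunits and ribotoxic stress sensors, 0 were called by edgeR, DESeq2 or limma, and at an unadjusted p below 0.05 by edgeR 1 was higher and 3 lower. The log2 changes were 0.03 ± 0.08 for EIF2AK3 (PERK, of the endoplasmic reticulum), 0.07 ± 0.06 for EIF2AK4 (GCN2, which senses uncharged tRNA), 0.12 ± 0.08 for EIF2AK2 (PKR, which senses double-stranded RNA) and -0.12 ± 0.05 for EIF2AK1 (HRI, which senses haem). MAP3K20, which encodes the ribosome collision sensor ZAK, had a log2 change of -0.00 ± 0.06. RNA levels of kinases do not report their activity.

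Of 35 tested genes of the response to unfolded protein in the endoplasmic reticulum (UPR), 2 rose (5.71%) and 0 fell. Over all tested genes 3.86% rose and 3.47% fell, so the 2 calls were not read as a result about the list. At an unadjusted p below 0.05 by edgeR, 16 were higher (45.7%) and 4 lower (11.4%), beside 13.3% and 16.3% of all tested genes. The count of rises was 1 without N2V8_NTG replicate 2 and 4 without N2V8_S7 replicate 1. XBP1, a transcription factor of that response, rose by 0.32 ± 0.05 and lost its call without N2V8_S7 replicate 3 or N2V8_NTG replicate 2 (0.27 to 0.36). SYVN1, a ubiquitin ligase for misfolded protein, rose by 0.33 ± 0.09 and lost its call without N2V8_NTG replicate 3 (0.27 to 0.39 over the 6 fits). HSPA5, the main chaperone of this compartment, had a log2 change of 0.20 ± 0.07 (adjusted p = 0.0538 by edgeR) and was not called. Interferon-stimulated genes gave 0 calls among 30 tested by edgeR, DESeq2 and limma, with 4 higher (13.3%) and 1 lower (3.33%) at an unadjusted p below 0.05, against 13.3% and 16.3% of all tested genes. Without N2V8_S7 replicate 3, 2 were called higher, and without N2V8_S7 replicate 1, 1 was. IFIT1, an antiviral RNA-binding protein, had 11.4, 12.1 and 10.7 CPM in N2V8_S7, against 11.9, 11.6 and 11.1 CPM in N2V8_NTG.

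Heat shock chaperones moved the opposite way to the stress response targets. Of 27 tested members 10 fell (37.0%) and 0 rose, and the median log2 change was -0.25. At an unadjusted p below 0.05, 22 were lower and 1 higher, and DESeq2 and limma each called 10 lower and 0 higher. Between 8 and 13 members were called lower when any of the 6 libraries was left out. The summed level of the list was 8836 to 9918 CPM in N2V8_S7 and 11326 to 12701 CPM in N2V8_NTG, while untransfected cells held 9102 to 10031 CPM. Against untransfected cells 1 member was higher and 2 were lower in N2V8_S7, and 11 were higher and 2 lower in N2V8_NTG.

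HSPA1B, an inducible cytosolic HSP70 (Entrez Gene 3304, chromosome 6, 31827738 to 31830254), had 390, 357 and 269 CPM in N2V8_S7, against 552, 894 and 747 CPM in N2V8_NTG. The groups were separate although N2V8_NTG was widely spread, and the log2 change was -1.11 ± 0.17 (adjusted p = 9.74e-06 by edgeR). In a fit on the compared libraries alone the change was -1.11 with an adjusted p of 0.0595. Its near-identical neighbour HSPA1A was listed at 0 to 0.991 CPM in the 6 libraries, so the split of reads between these copies is uncertain. HSPE1, the mitochondrial co-chaperonin (Entrez Gene 3336, chromosome 2, 197500379 to 197503449), had 123, 108 and 107 CPM in N2V8_S7, against 155, 189 and 169 CPM in N2V8_NTG (-0.61 ± 0.10). HSPD1, its partner chaperonin, had 1220, 1170 and 1005 CPM against 1330, 1449 and 1486 CPM (-0.33 ± 0.07). The smaller fall of HSPD1 lost its call without N2V8_S7 replicate 3, N2V8_NTG replicate 2 or N2V8_NTG replicate 3 (-0.39 to -0.25).

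Several cytosolic chaperones and co-chaperones of the list fell. HSP90AA1, the inducible HSP90, had 2008, 1848 and 1726 CPM in N2V8_S7, against 2360, 2629 and 2628 CPM in N2V8_NTG (-0.45 ± 0.06). The co-chaperones FKBP4 (-0.50 ± 0.05), CHORDC1 (-0.49 ± 0.09) and STIP1 (-0.41 ± 0.05) and the HSP70 exchange factors HSPH1 (-0.47 ± 0.06) and HSPA4 (-0.37 ± 0.06) fell in each fit that left out a library. HSPA8, the constitutive HSP70, changed by -0.33 ± 0.07 and lost its call without N2V8_S7 replicate 3 or N2V8_NTG replicate 2 (-0.38 to -0.28). The co-chaperone AHSA1 (-0.31 ± 0.06), HSP90AB1, the constitutive HSP90 (-0.17 ± 0.05), DNAJB1, an HSP40 (-0.18 ± 0.06), BAG3 (-0.19 ± 0.07) and the small heat shock protein HSPB1 (0.02 ± 0.07) were not called.

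A heat shock element of 3 alternating units, written GAANNTTCNNGAA, was in the RefSeq windows of 6 of 24 heat shock genes with a window, or 6 of 37 windows (16.2%), on either strand. Of these 6 genes 4 were called lower, beside 9 of the 24. The share among all 35116 windows was 0.441%, and since the members were listed as heat shock genes, the share in the list is no result of the comparison. The windows below come from a chaperone and a co-chaperone that fell in N2V8_S7, with the motif in capitals. In HSP90AA1 it appears as its reverse complement, and the CHORDC1 window holds 3 overlapping matches, of which the first is marked.
HSP90AA1 (chr14:102087095-102087157, minus strand): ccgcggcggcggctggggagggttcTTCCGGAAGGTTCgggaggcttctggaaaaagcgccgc
CHORDC1 (chr11:90223072-90223134, minus strand): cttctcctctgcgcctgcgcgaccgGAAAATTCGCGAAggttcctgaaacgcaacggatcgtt

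TFRC, the receptor that takes up iron-loaded transferrin (Entrez Gene 7037, chromosome 3, 196049284 to 196082090), showed a fall of the same size as HSPA1B. It had 108, 112 and 140 CPM in N2V8_S7, against 260, 250 and 262 CPM in N2V8_NTG, with a log2 change of -1.10 ± 0.19 (adjusted p = 4.24e-05 by edgeR). The libraries of N2V8_NTG lay close together and well above all of N2V8_S7. Untransfected cells averaged 139.3 ± 10.5 CPM (SD, n = 3), and the log2 difference from them was -0.22 ± 0.19 in N2V8_S7 and 0.89 ± 0.19 in N2V8_NTG.

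Genes of mitochondrial protein synthesis and respiration fell by small amounts in large numbers. Of 78 mitochondrial ribosomal proteins 17 fell (21.8%) and 0 rose, with a median of -0.20, and 47 were lower and 0 higher at an unadjusted p below 0.05. DESeq2 and limma each called 16 lower and 0 higher. MRPL41, of the large subunit (Entrez Gene 64975, chromosome 9, 137551879 to 137552555), had 17.4, 17.3 and 16.9 CPM in N2V8_S7, against 28.7, 30.3 and 28.5 CPM in N2V8_NTG (-0.76 ± 0.11). MRPL20 (-0.62 ± 0.08) and MRPS12 (-0.51 ± 0.09) fell in each fit that left out a library, as 7 of the 17 did. Of 76 nuclear-encoded subunits of oxidative phosphorylation 14 fell (18.4%) and 0 rose, with a median of -0.19, and DESeq2 called 12 and limma 14 lower. The count was 8 without N2V8_S7 replicate 1 and 9 without N2V8_NTG replicate 3, and 6 of the 14 were called in all 6 fits that left out a library. ATP5MC1 and ATP5MC3 encode the same mature ring subunit of the ATP synthase. ATP5MC1 had 43.3, 41.0 and 40.4 CPM in N2V8_S7, against 62.7, 66.9 and 59.4 CPM in N2V8_NTG (-0.60 ± 0.10), and ATP5MC3 changed by -0.50 ± 0.08. COX7B of cytochrome c oxidase fell by 0.50 on the log2 scale (SE 0.10). Against untransfected cells 21 of the 76 were higher in N2V8_S7 and 45 in N2V8_NTG, and 0 were lower in either. Of the 78 mitochondrial ribosomal proteins 11 were higher and 1 lower in N2V8_S7, and 40 higher and 1 lower in N2V8_NTG.

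Ribosome assembly genes fell as well. Of 68 ribosome biogenesis genes 17 fell (25%) and 0 rose, with a median of -0.22, and 49 were lower and 1 higher at an unadjusted p below 0.05. DESeq2 called 16 and limma 17 lower. Against untransfected cells 8 of the 68 were higher and 1 lower in N2V8_S7, with a median of -0.01. In N2V8_NTG 24 were higher and 1 lower, with a median of 0.21. The nucleolar assembly factors NOP16 (-0.48 ± 0.11), NOC3L (-0.47 ± 0.08), UTP20 (-0.47 ± 0.12) and UTP14A (-0.43 ± 0.08) were the named falls, and UTP20 had 30.1, 28.6 and 22.4 CPM in N2V8_S7 against 36.8, 37.95 and 37.97 CPM in N2V8_NTG. Of 79 cytosolic ribosomal proteins 1 fell, RPS26 (-0.35 ± 0.06), and the median was -0.08. MYC, a transcription factor that induces ribosome biogenesis genes, had 91.3, 86.6 and 78.6 CPM against 107, 127 and 118 CPM (-0.45 ± 0.09).

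Proteasome subunits fell with these groups, 7 of 34 (20.6%) with 0 rises and a median of -0.27, the lowest median of the lists described here. All 34 log2 changes were below 0, and 28 were lower at an unadjusted p below 0.05. PSMD1, a scaffold of the regulatory particle, had 162, 157 and 156 CPM in N2V8_S7, against 214, 247 and 233 CPM in N2V8_NTG (-0.54 ± 0.06). PSMA2 (-0.41 ± 0.07) and PSMB6 (-0.41 ± 0.07), of the core particle, fell as well. Leaving out a library gave 5 (without N2V8_NTG replicate 2) to 13 (without N2V8_NTG replicate 1) members lower. Against untransfected cells 3 of the 34 were higher and 0 lower in N2V8_S7, with a median of 0.12. In N2V8_NTG 19 were higher and 0 lower, with a median of 0.39. Over all tested genes 9.3% were higher in N2V8_S7 and 15.5% in N2V8_NTG, so the falls are relative to a group above untransfected cells.

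**Figure D3:**
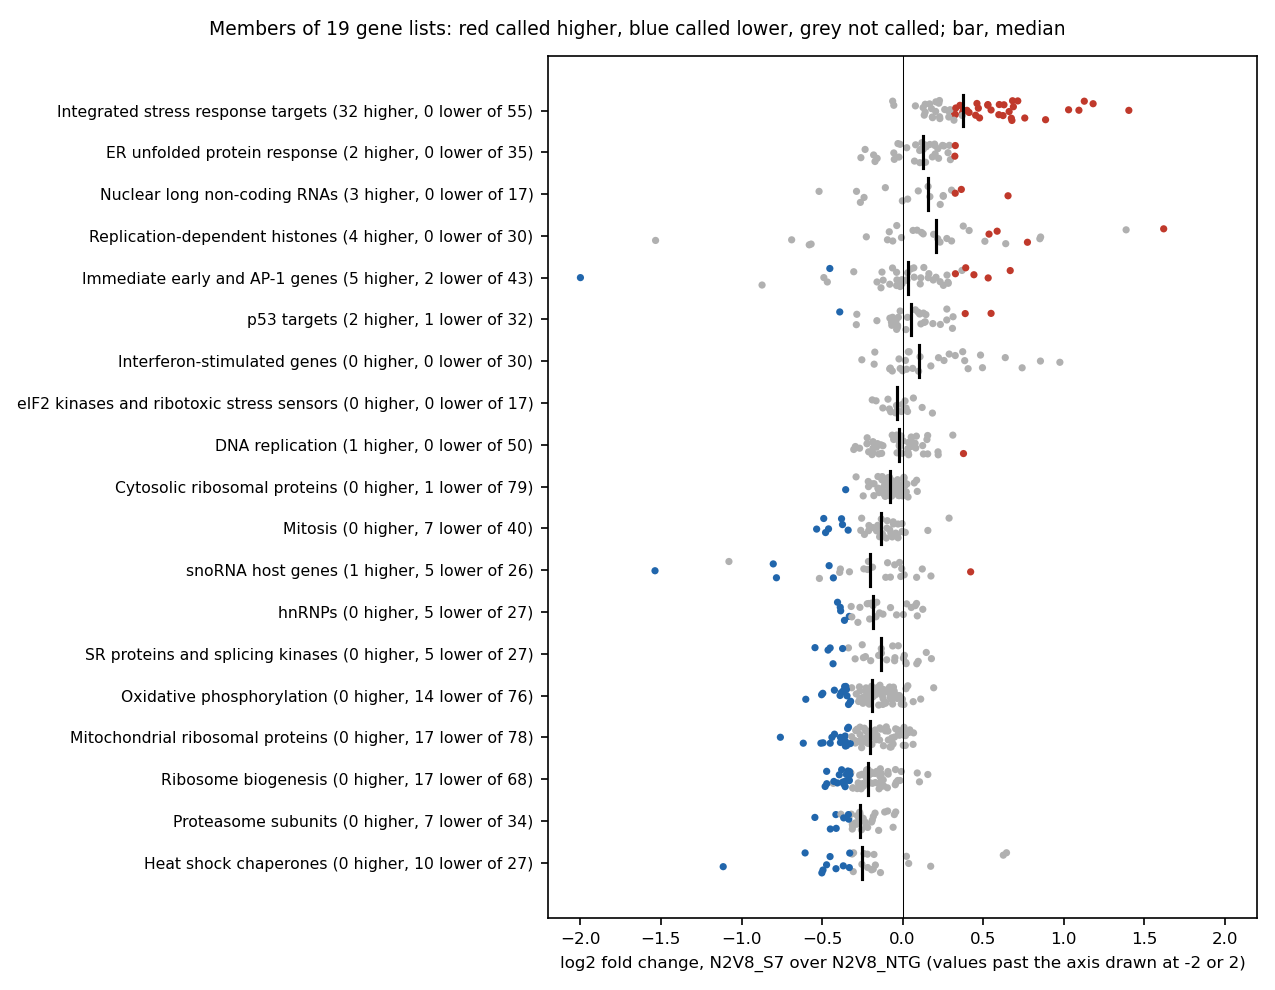
Log2 fold change of N2V8_S7 over N2V8_NTG (x axis) of each tested member of 19 gene lists (rows), coloured by its call, with a bar at the median and the counts of calls beside the list's name. The integrated stress response list stands to the right with 32 of 55 members higher and a median of 0.37, and the heat shock, mitochondrial ribosome, ribosome biogenesis and proteasome lists stand to the left with medians of -0.25, -0.20, -0.22 and -0.27.

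Splicing factors and mitotic genes gave smaller counts. Of 27 SR proteins and splicing kinases 5 fell (18.5%) and 0 rose. SRSF2 (Entrez Gene 6427, chromosome 17, 76734115 to 76737411), which binds exonic splicing enhancers, had 138, 142 and 138 CPM in N2V8_S7, against 201, 210 and 200 CPM in N2V8_NTG (-0.54 ± 0.06, adjusted p = 4.24e-09 by edgeR). The libraries of each group lay close together and the groups were separate. SRSF3 (-0.46 ± 0.06) and SRSF1 (-0.45 ± 0.06) fell likewise. Of 27 hnRNPs 5 fell, led by HNRNPK (-0.40 ± 0.05), a poly(C)-binding protein, which had 787, 767 and 756 CPM against 962, 1061 and 1036 CPM. The hnRNP count was 8 without N2V8_S7 replicate 1 and 3 without N2V8_S7 replicate 3, and 2 of the 5 were called in all 6 such fits. Against untransfected cells 8 of the 27 SR proteins and splicing kinases were higher and 2 lower in N2V8_S7, and 12 higher and 3 lower in N2V8_NTG. Of the 27 hnRNPs 4 were higher and 0 lower in N2V8_S7, and 14 higher and 1 lower in N2V8_NTG.

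Of 40 mitosis genes 7 fell (17.5%) and 0 rose. CDC20, the activator of the anaphase-promoting complex (Entrez Gene 991, chromosome 1, 43358981 to 43363203), had 91.7, 88.0 and 91.3 CPM in N2V8_S7, against 128, 135 and 129 CPM in N2V8_NTG (-0.53 ± 0.05, adjusted p = 1.81e-11 by edgeR). CCNB1, the mitotic cyclin, fell by 0.48 on the log2 scale (SE 0.05), with the mitotic kinase AURKA (-0.46 ± 0.06) and the kinesin KIF20A (-0.49 ± 0.06). In comparison with untransfected cells these 4 genes were higher in both groups, by 0.40 to 0.54 in N2V8_S7 and by 0.93 to 1.00 in N2V8_NTG.

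Long non-coding host genes of small nucleolar RNAs were mixed, with 1 of 26 higher (3.85%) and 5 lower (19.2%). Over all tested genes these shares were 3.86% and 3.47%. SNHG10 showed the largest fall among them, with 2.17, 2.14 and 1.88 CPM in N2V8_S7, against 6.12, 6.11 and 5.83 CPM in N2V8_NTG (-1.54 ± 0.23). SNHG11 (-0.80 ± 0.20), SNHG21 (-0.78 ± 0.20) and SNHG3 (-0.43 ± 0.08) fell, and SNHG1 rose (0.42 ± 0.09). Among 17 nuclear long non-coding RNAs 3 rose (17.6%) and 0 fell. MALAT1, a nuclear speckle RNA, had 1530, 1399 and 1592 CPM in N2V8_S7, against 943, 949 and 983 CPM in N2V8_NTG (0.65 ± 0.19), and lost its call in the fit without the factor of unwanted variation. NORAD (0.36 ± 0.06) and TUG1 (0.33 ± 0.07) lost theirs without N2V8_NTG replicate 2, and TUG1 also without N2V8_S7 replicate 1 or replicate 2, with changes of 0.30 to 0.42 and 0.29 to 0.36. NEAT1, the scaffold of paraspeckles, was not called (0.17 ± 0.12).

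Replication-dependent histone genes, whose mRNAs normally lack a poly(A) tail, had 4 of 30 members called higher (13.3%) and 0 lower. Over all tested genes these shares were 3.86% and 3.47%. H1-2, a linker histone, had 26.1, 26.7 and 42.5 CPM in N2V8_S7, against 19.5, 17.4 and 18.2 CPM in N2V8_NTG (0.77 ± 0.15), and it alone of the 4 was called in all 6 fits that left out a library. H2BC21 (0.54 ± 0.15) lost its call without N2V8_NTG replicate 1 (0.42), H2BC4 lost its call without N2V8_NTG replicate 1 or 3 (1.11 to 3.36 over the 6 fits), and H2BC5 without N2V8_S7 replicate 1 or 3 or N2V8_NTG replicate 1 or 3 (0.51 to 0.74).

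Immediate early genes, which are induced by mitogens and stress kinases, showed a rise in a few members. Of 43 tested, 5 rose (11.6%) and 2 fell (4.65%), beside 3.86% and 3.47% of all tested genes. The median of the list was 0.03. In all 6 fits that left out a library 4 of the 7 were called, and 3 rose without N2V8_S7 replicate 3. JUN, an AP-1 subunit (Entrez Gene 3725, chromosome 1, 58780791 to 58784047), had 429, 410 and 428 CPM in N2V8_S7, against 256, 266 and 274 CPM in N2V8_NTG (0.67 ± 0.08, adjusted p = 3.80e-08 by edgeR). CCN1, a secreted matricellular protein, rose by 0.53 ± 0.12. FOS (-0.00 ± 0.17) and EGR1 (0.07 ± 0.17), which usually respond with JUN to mitogens, overlapped between the groups. SPRY4, a feedback inhibitor of receptor signalling, was called lower on 0, 1 and 3 counts in N2V8_S7 against 4, 4 and 10 counts in N2V8_NTG, and lost this call without N2V8_S7 replicate 1 or 2 or N2V8_NTG replicate 3 (-3.44 to -1.53).

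Several of the largest rises were in genes outside these lists. FUT1, the fucosyltransferase that makes the H antigen (Entrez Gene 2523, chromosome 19, 48748011 to 48755358), had 5.78, 5.83 and 9.22 CPM in N2V8_S7, against 2.04, 2.37 and 2.14 CPM in N2V8_NTG. It rose 3.15-fold (log2 1.65 ± 0.26, adjusted p = 4.26e-06 by edgeR). The locus LOC101927345, which has no gene symbol, had a larger log2 change of 1.79 ± 0.36, with 8.88, 10.04 and 8.62 CPM in N2V8_S7 against 4.59, 1.18 and 2.04 CPM in N2V8_NTG. AKNA, a centrosomal protein (Entrez Gene 80709, chromosome 9, 114330504 to 114398472), had 10.2, 11.5 and 13.5 CPM against 3.23, 4.73 and 3.69 CPM (1.60 ± 0.26). G0S2, an inhibitor of triglyceride lipase (Entrez Gene 50486, chromosome 1, 209675412 to 209676390), had 20.9, 20.3 and 19.6 CPM against 10.8, 7.59 and 7.57 CPM (1.21 ± 0.17).

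INPP5D, an inositol phosphatase known from blood cells, had 20.03, 20.7 and 17.04 CPM in N2V8_S7, against 10.5, 10.1 and 8.45 CPM in N2V8_NTG (1.00 ± 0.14). ACTA2, the smooth muscle actin, had 25.6, 26.3 and 21.1 CPM against 11.5, 12.7 and 13.7 CPM (0.95 ± 0.12). It belongs to a further list, of targets of the regulators SRF and YAP. Of the 26 tested members of that list 2 rose (7.69%) and 0 fell, beside 3.86% and 3.47% of all tested genes. The metalloproteinase ADAMTS7 rose by 1.06 ± 0.23 and the protocadherin PCDHGA11 by 0.96 ± 0.18, each with under 6 CPM in every N2V8_NTG library. The falls outside the lists included DFFB, the caspase-activated DNase, with 10.8, 8.34 and 9.22 CPM in N2V8_S7 against 15.7, 17.1 and 15.8 CPM in N2V8_NTG (-0.78 ± 0.14). DPH2, of diphthamide synthesis, fell by 0.70 on the log2 scale (SE 0.09), and the transcription factor KLF15 by 0.73 (SE 0.18). ANKRD36 was also among the 15 largest falls but kept its call in 1 of the 6 fits that left out a library, the one without N2V8_NTG replicate 2 (-0.97 to -0.58). BCL2L2-PABPN1 lost its call without N2V8_S7 replicate 2 or N2V8_NTG replicate 1 or 2 (-0.82 to -0.50). The readthrough gene BCL2L2-PABPN1 overlaps its 2 parent genes.

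Calls in genes of 3 other pathways are to be read beside 3.86% higher and 3.47% lower of all tested genes. Cholesterol and fatty acid synthesis had 5 of 31 lower (16.1%) and 1 higher (3.23%). Of these 6, 0 were called in all 6 fits that left out a library. The 28 genes of the NRF2 and glutathione list had 3 lower (10.7%), among them PRDX1, a peroxiredoxin (-0.36 ± 0.06). Another 2 were higher (7.14%), SLC7A11 and CHAC1, which the stress response list also holds. Without N2V8_S7 replicate 1 or N2V8_NTG replicate 2 the count of 3 lower became 1. Among 32 p53 targets 2 rose (6.25%) and 1 fell (3.1%), and 4 rose without N2V8_S7 replicate 3 or N2V8_NTG replicate 3. CDKN1A, the p53-induced inhibitor of the cell cycle, had a change of 0.19 ± 0.07 (adjusted p = 0.0504 by edgeR) and MDM2 one of 0.11 ± 0.05, neither called. TP53INP1 rose by 0.39 ± 0.11.

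S7 was next compared directly with the other crRNAs delivered with N2V8, without the NTG libraries. Between N2V8_S7 and N2V8_S13, 14 genes were called (0.091%), 5 higher (0.0325%) and 9 lower (0.0585%). Between N2V8_S7 and N2V8_S3 there were 85 (0.553%), 27 higher (0.176%) and 58 lower (0.377%), and between N2V8_S7 and N2V8_S4 there were 32 (0.208%), 29 higher (0.189%) and 3 lower (0.0195%). At an unadjusted p below 0.05 the 3 comparisons gave 1479, 2702 and 1383 genes (9.62%, 17.57% and 8.99% of those tested). Without N2V8_S7 replicate 1 the counts were 1, 10 and 12. Without the factor of unwanted variation they were 0, 5 and 10, and in that fit 894, 1711 and 906 genes had an unadjusted p below 0.05. In fits of the compared libraries alone, also without the factor, the counts were 2, 74 and 23. Of these, 0, 43 and 13 were also called in the main fit.

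Few members of the integrated stress response list were called between these crRNAs, although many had a low unadjusted p against S13 and S3. 0, 1 and 0 of the 55 were called higher in N2V8_S7 than in N2V8_S13, N2V8_S3 and N2V8_S4, and 0 lower, with 31 (56.4%), 25 (45.5%) and 6 (10.9%) members at an unadjusted p below 0.05 and medians of 0.12, 0.14 and 0.01. Over all tested genes those shares were 9.62%, 17.57% and 8.99%. The member called was ALDH1L2, with 112, 108 and 122 CPM in N2V8_S7, against 74.6, 89.7 and 85.4 CPM in N2V8_S3 (0.45 ± 0.09), and it lost this call without N2V8_S3 replicate 1. For ASNS the log2 difference was 0.40 (95% interval 0.17 to 0.64) from S13, 0.43 (0.20 to 0.67) from S3 and 0.06 (-0.18 to 0.30) from S4, none called. For HSPA1B it was -0.20 (-0.56 to 0.15), -0.15 (-0.50 to 0.21) and -0.01 (-0.36 to 0.34) in the same order. The intervals of ASNS from S13 and S3 lay above 0 and reached past the fold limit, and those of HSPA1B reached past it on the lower side, so missed calls do not show that the crRNAs acted alike.

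JUN was called higher in N2V8_S7 than with 2 of the 3 crRNAs. Against the 429, 410 and 428 CPM of N2V8_S7, it had 301, 316 and 394 CPM in N2V8_S13 (0.33 ± 0.08) and 316, 318 and 330 CPM in N2V8_S3 (0.39 ± 0.08). LOXL4, a lysyl oxidase, had 15.3, 11.2 and 16.7 CPM in N2V8_S7, against 9.40, 9.57 and 10.2 CPM in N2V8_S13 (0.55 ± 0.14). CHKA, a choline kinase, was lower, with 23.6, 23.8 and 23.3 CPM against 31.0, 34.1 and 29.1 CPM (-0.42 ± 0.09). None of these calls against S13 held without the factor of unwanted variation, and JUN, LOXL4 and CHKA lost theirs in 5, 5 and 4 of the 6 fits that left out a library. The mitochondrial genes MRPL41 (-0.48 ± 0.11) and ATP5MC1 (-0.47 ± 0.10) were lower in N2V8_S7 than in N2V8_S3. These calls and that of JUN against S3 were also lost without the factor, and in 3 (MRPL41), 2 (ATP5MC1) and 2 (JUN) of the fits that left out a library. INPP5D was higher than in N2V8_S4, where it had 10.1, 12.4 and 11.6 CPM (0.77 ± 0.14), as were ACTA2 (0.68 ± 0.11) and PVT1, a long non-coding RNA next to MYC. PVT1 had 14.97, 15.06 and 13.5 CPM in N2V8_S7, against 5.89, 6.87 and 5.84 CPM in N2V8_S4 (1.23 ± 0.16), while its difference from N2V8_NTG was 0.16 ± 0.14 and not called. The calls of INPP5D, ACTA2 and PVT1 against S4 held without the factor and in all 6 fits that left out a library.

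**Figure D4:**
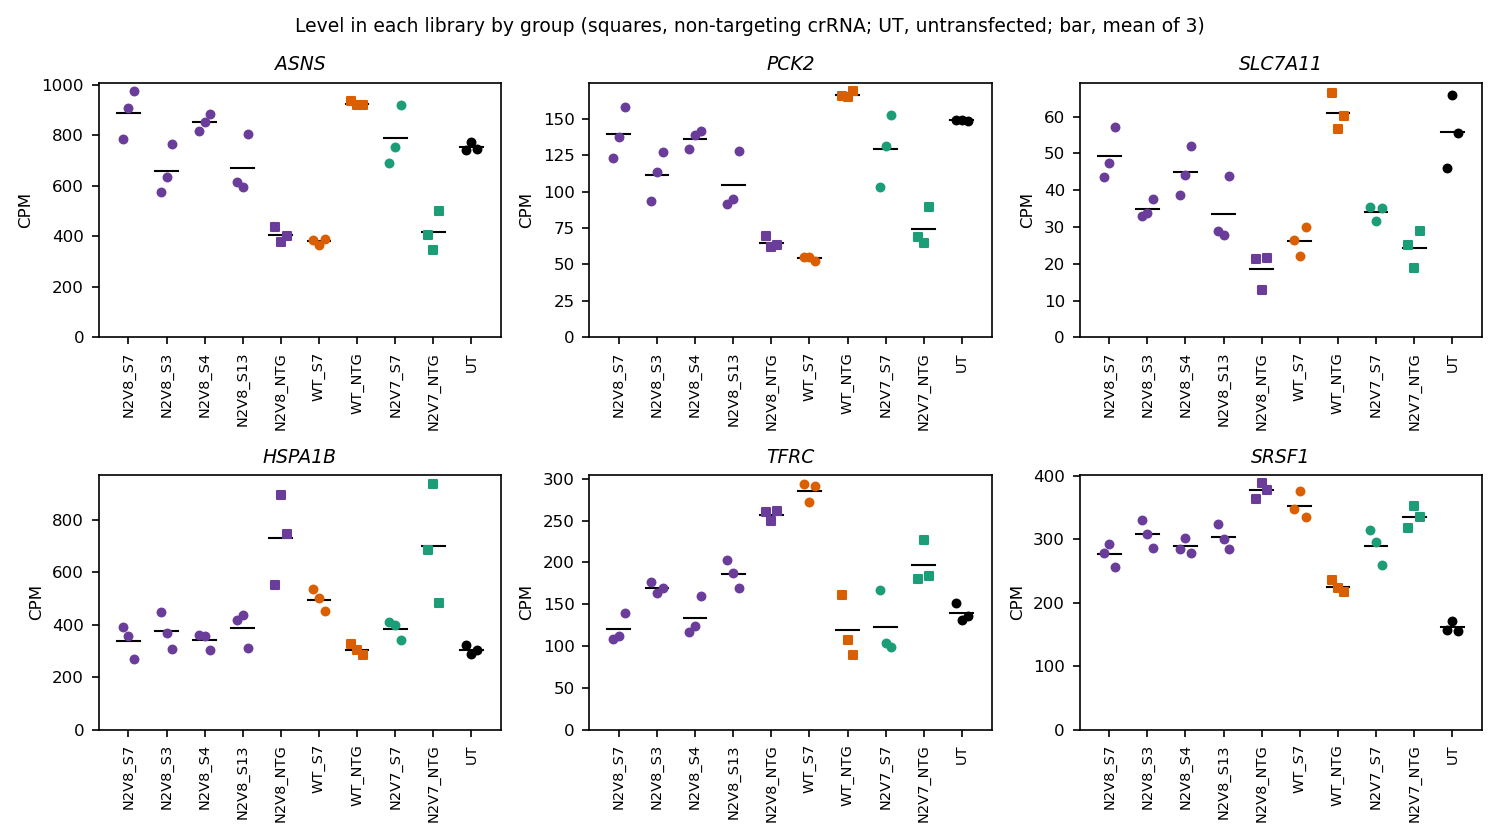
Levels (y axis, CPM, from 0) of 6 genes in 10 groups, with a point for each library (squares for the non-targeting crRNA) and a bar at the mean of 3. ASNS averaged 891 CPM in N2V8_S7, 852 in N2V8_S4, 672 in N2V8_S13, 660 in N2V8_S3, 406 in N2V8_NTG and 754 in untransfected cells.

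Among libraries labelled with the unmutated effector, the stress response targets and the chaperones were called in the other direction. This direction rests on the labels WT_S7 and WT_NTG, since no gene in the table marks the crRNA. Whether these labels could be exchanged was not tested, and an exchange would turn the sign of the WT effect and change the interaction. In WT cells S7 against NTG gave 2951 calls (19.2%), with 9.36% of the tested genes higher and 9.83% lower. In N2V7 cells it gave 2197 (14.3%), with 5.38% higher and 8.91% lower. Of the 55 stress response targets 32 were higher and 0 lower in N2V8, 0 higher and 41 lower in WT, and 22 higher and 0 lower in N2V7. Of the 27 heat shock chaperones 0 were higher and 10 lower in N2V8, 15 higher and 0 lower in WT, and 0 higher and 4 lower in N2V7. The effect of S7 in N2V8 minus its effect in WT, tested as an interaction over these 12 libraries, passed the limits for 4779 genes (31.1%), 2362 positive (15.4%) and 2417 negative (15.7%). Of the 1127 genes called in N2V8, 995 were among them. The interaction contains the N2V8 effect by which these genes were called, so part of this overlap is built in. For 300 genes the effect was called higher in N2V8 and lower in WT with the difference called, and for 288 the reverse. The interaction was positive for 49 and negative for 0 of the 55 targets, and negative for 21 and positive for 0 of the 27 chaperones.

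ASNS shows how the levels lay. It averaged 891 ± 96.9 CPM in N2V8_S7 and 406 ± 30.1 CPM in N2V8_NTG, and 381 ± 12.4 CPM in WT_S7 and 926 ± 10.3 CPM in WT_NTG (SD, n = 3 each). The log2 effect was 1.13 in N2V8 and -1.28 ± 0.12 in WT, a difference of 2.41 ± 0.17 (adjusted p = 1.51e-13 by edgeR). In N2V7 cells it averaged 790 ± 118 CPM with S7 and 418 ± 78.1 CPM with NTG. The low levels of ASNS were in the libraries labelled WT_S7, N2V7_NTG and N2V8_NTG, and the other 15 groups of the series averaged 601 to 1039 CPM. TFRC was the mirror image, with 120 ± 17.3 CPM in N2V8_S7 and 257 ± 6.46 CPM in N2V8_NTG, and 286 ± 11.6 CPM in WT_S7 and 119 ± 37.0 CPM in WT_NTG (difference -2.37 ± 0.27). C9orf72 itself had a difference of 0.37 ± 0.13 between the effectors (adjusted p = 0.0267 by edgeR), from 0.12 in N2V8 and -0.25 in WT, neither of which was called.

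Not every change in N2V8 was turned round in WT. H1-2 rose in both, by 0.77 in N2V8 and by 2.42 ± 0.13 in WT, with a difference of -1.64 ± 0.20. CCN1 rose by 0.53 in N2V8 and by 0.64 in WT, and the difference of -0.11 was not called. SGK1, a kinase induced by steroids and stress, had a difference of -3.60 ± 0.22. It had 6.61, 6.35 and 6.84 CPM in N2V8_S7 against 7.31, 9.76 and 7.57 CPM in N2V8_NTG, and 43.2, 49.3 and 48.0 CPM in WT_S7 against 4.21, 4.53 and 5.56 CPM in WT_NTG.

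**Figure D5:**
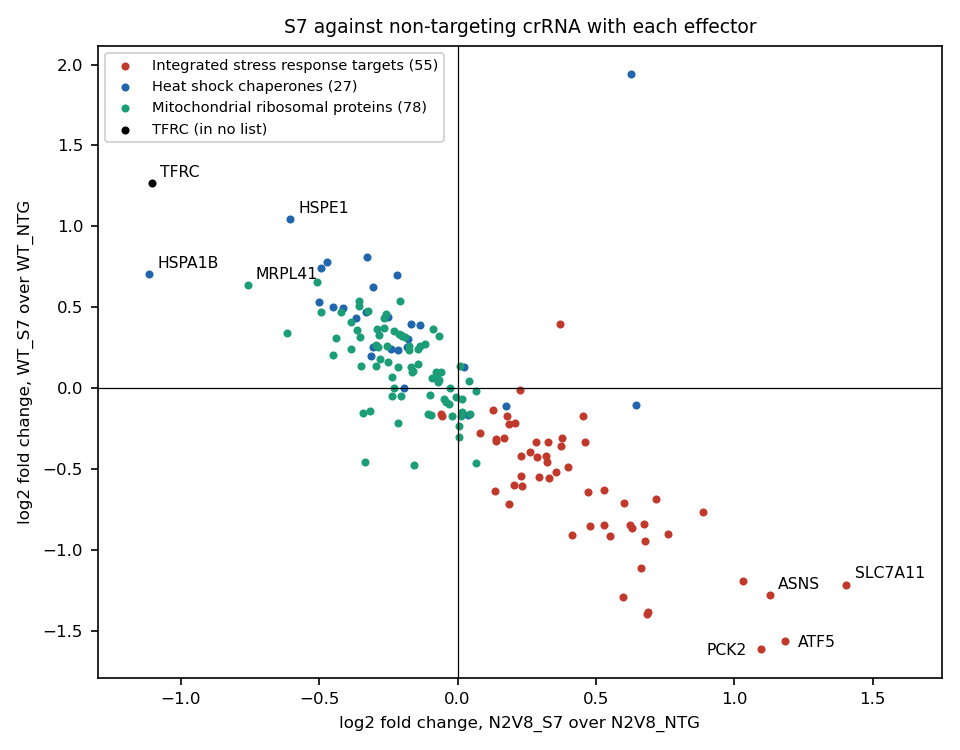
Log2 fold change of S7 over NTG in N2V8 cells (x axis) and in WT cells (y axis) for the tested members of 3 gene lists and TFRC. ASNS lies at 1.13 in N2V8 and -1.28 in WT at the lower right, and TFRC at -1.10 and 1.27 at the upper left, and the isolated chaperone at the upper right is HSPA1A, which had few counts.

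Between the mutated effectors the difference was smaller for the stress response and larger for the mitochondrial genes. N2V8 minus N2V7 passed the limits for 3005 genes (19.5%), 1659 positive (10.8%) and 1346 negative (8.75%). Among the 55 stress response targets 12 were positive and 0 negative with a median of 0.06, and ASNS differed by 0.21 ± 0.17, not called. Of the 76 oxidative phosphorylation genes 60 were negative and 0 positive, with a median of -0.42, and of the 78 mitochondrial ribosomal proteins 50 were negative. Of the 34 proteasome genes 18 were negative and 0 positive. The effects behind the respiratory genes had opposite directions, with 0 of 76 higher and 14 lower in N2V8, and 15 higher and 0 lower in N2V7. PKD1, which encodes polycystin, had 9.75, 10.3 and 9.57 CPM in N2V7_S7, against 24.5, 19.7 and 20.996 CPM in N2V7_NTG. Its interaction was 1.67 ± 0.26, and its rise in N2V8 (0.46 to 0.61 over the fits that left out a library) lost its call in 5 of those 6 fits, all but the one without N2V8_NTG replicate 1.

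Against untransfected cells, finally, 2559 genes (16.6%) differed in N2V8_S7, 1430 higher and 1129 lower, and 4704 (30.6%) differed in N2V8_NTG, 2385 higher and 2319 lower. The p53 target list was higher with either crRNA, with 18 of 32 members up and 1 down in N2V8_S7 and 17 up and 4 down in N2V8_NTG. Of the 30 interferon-stimulated genes 13 were up and 0 down in N2V8_S7, and 9 up and 2 down in N2V8_NTG. IFIT1 was higher by 1.00 in N2V8_S7 and by 1.01 in N2V8_NTG.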

How the data were processed

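The 54 libraries were grouped by their labels. The authors mapped paired-end reads with Salmon 1.5.2 against NCBI spliced transcripts (decoy: GRCh38) and deposited estimated counts per gene, scaled by tximport for transcript length. They also deposited a mark (unit: other, TRUE or FALSE) of genes they kept, used only in an alternative, whose rule is not given in the sources used here. Counts were rounded, and 15378 of 38137 genes passed edgeR's filterByExpr (genes below it held 0.0722% of counts). One edgeR 4.0.16 quasi-likelihood fit (R 4.3.3, TMM) had a term for each of the 18 groups plus 1 RUVr factor, an unwanted-variation estimate from the residuals, of whose squared weight 95.6% lay in N2V7_S4 and 1.2% in the 6 libraries. Totals were 9546773 to 15099225 per library. P-values were adjusted (Benjamini-Hochberg) over all genes and the 9 comparisons of S3, S4 or S7 with NTG, the 2 effector differences, the 3 crRNA comparisons or the 2 comparisons with UT. Standard errors are of log2 fold changes. They and the p-values rest on the spread between cultures within groups, estimated over all 54 libraries and not over the compared libraries alone.

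The members and gene lists were chosen with earlier results of these data known. Named genes were the 15 largest rises and falls (mean log2 CPM of at least 2, libraries not overlapping), up to 4 called members per list and the 5 largest differences per other comparison and direction. Of these, 1 gene is left out of the text. Further list members were named for their roles after their values were seen. The treatment label of N2V8_S13 spells the effector differently from its title, which was followed. The fit was tested on simulated data. Alternatives used limma 3.58.1 and DESeq2 1.42.0, other filters and scalings, fewer libraries, a replicate block, and each library left out in turn.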

Additional observations from a re-analysis of the deposited data

Results flagged for a closer look

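The effect of S7 against NTG differed between N2V8 and WT cells by the interaction test for 4779 genes and between N2V8 and N2V7 cells for 3005 genes. Most of the genes with the largest rises and falls in N2V8 were also called in the difference from WT. That difference contains the same N2V8 effect by which the genes were picked, so part of this overlap is built in. The log2 difference was positive for the stress response genes SLC7A11 (2.62), ATF5 (2.75), ASNS (2.41), PCK2 (2.71) and CHAC1 (2.22) and for the pseudogene ASNSP1 (2.57). It was also positive for FUT1 (3.60), AKNA (3.29), INPP5D (3.28), G0S2 (2.30), ADAMTS7 (1.71), PCDHGA11 (1.62) and ACTA2 (1.60). It was negative for the chaperone HSPA1B (-1.82), the iron receptor TFRC (-2.37), the glutamate transporter SLC1A3 (-1.99), SAPCD2 (-1.82), the snoRNA host SNHG21 (-1.84), ANKRD36 (-1.62), DPH2 (-1.45), MRPL41 (-1.40), CHAC2 (-1.35), BCL2L2-PABPN1 (-1.26), NBEA (-1.17), DFFB (-1.13) and KLF15 (-0.71). The difference sums an effect in N2V8 and an effect in WT, and each has its own NTG libraries. It rests on the labels WT_S7 and WT_NTG, whose possible exchange was not tested. No group of 3 can be tested for an outlying library by the rule used here.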

How the results depend on the processing

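The count of 1127 genes called between N2V8_S7 and N2V8_NTG fell to 734 at an adjusted p under 0.01, and to 926 at the least when a library was left out (without N2V8_NTG replicate 2, highest 1188). With untransfected cells in place of N2V8_NTG, an alternative chosen after seeing the data, it was 2559, of which 350 genes were shared with the 1127. It was 818 without the factor, 1036 with DESeq2, 1200 with limma and 994 in a fit of the compared libraries. Without replicate 2 of N2V7_S4, the group with most of the factor's weight, it was 1148. 422 genes (207 higher, 215 lower) were called in all 15 refits. Called list members numbered 139 to 179 without 1 library, against 167, and C9orf72 stayed uncalled at 0.07 to 0.16. The differences from WT and N2V7 gave 4393 to 4829 and 2650 to 3087 genes without 1 library.

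The comparisons between crRNAs were the least stable. Against S13 the 14 calls became 0 without the factor and 2 in a fit of the compared libraries, and 1 to 37 when a library was left out: 1 without N2V8_S7 replicate 1, 5 without N2V8_S7 replicate 2, 4 without N2V8_S13 replicate 2 and 37 without N2V8_S13 replicate 3. Against S3 the 85 calls became 5 without the factor and 74 in a fit of the compared libraries. They became 10 to 116 when a library was left out: 10 without N2V8_S7 replicate 1, 40 without N2V8_S7 replicate 2, 31 without N2V8_S3 replicate 1 and 116 without N2V8_S7 replicate 3. Against S4 the 32 calls became 10 without the factor and 23 in a fit of the compared libraries. They became 12 to 34 when a library was left out: 12 without N2V8_S7 replicate 1, 13 without N2V8_S7 replicate 2, 15 without N2V8_S4 replicate 1 and 21 without N2V8_S4 replicate 2. The cause was not tested.

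Same-numbered replicates did not vary together (correlations of -0.020, 0.013 and -0.014 for replicates 1, 2 and 3), so the numbers were not treated as pairs. With the replicate number as a block the counts were 1125 for N2V8_NTG, 15, 89 and 34 for S13, S3 and S4, and 4780 and 3023 for the differences from WT and N2V7. Depth limits genes of a few counts, such as SPRY4, and the share of genes past the limits rests on 3 libraries a group.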
